A study of Homo sapiens with 21 samples.

Results

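Mitochondrial complex I is built from subunits encoded in the nucleus and in mitochondrial DNA. The 46 genes described here are nuclear subunits of it and the assembly factors named after them, with NDUFA4 and NDUFA4L2, which are related to complex IV. Together they are called complex I genes below. They were chosen by gene symbol alone, as rows of the expression matrix whose symbol follows the NDUFA, NDUFB, NDUFC, NDUFS, NDUFV or NDUFAF pattern with a number, plus NDUFAB1 and NDUFA4L2, out of 34021 genes in the matrix. The cells were H1975, a human non-small-cell lung cancer line with mutant EGFR, the receptor that osimertinib inhibits. Group OC was labelled as overexpressing cIGF1R and treated with 500 nM osimertinib for 8 days. Group OL+EV was labelled wild type and received 500 nM osimertinib with 500 nM linsitinib, an inhibitor of the IGF1 receptor, for 8 days. Group DMSO+EV was labelled wild type and received the solvent DMSO for 8 days. Each group had 3 libraries. The labels do not spell out EV, do not give EV for OC, and name no group with osimertinib and EV alone. In OC against DMSO+EV the drug and the overexpression changed together, and in OC against OL+EV the overexpression and the absence of linsitinib changed together, so their shares cannot be told apart. Nothing in the labels tells whether replicate libraries were grown as separate cultures, and the p-values then reflect only how much these libraries varied, which may be technical. The extraction text attached to every sample names 3 days of drug, the washing away of dying cells and RNase R (it degrades linear RNA but not circles), and it does not settle whether the 8-day libraries were made that way.

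Complex I, NADH:ubiquinone oxidoreductase, is the largest enzyme of the respiratory chain. Its peripheral arm holds the N module, which oxidises NADH, and the Q module, which passes the electrons to ubiquinone, and its membrane arm pumps protons. The core subunits carry out catalysis, the accessory subunits surround and stabilise them, and assembly factors hold intermediates together or modify subunits but are absent from the finished enzyme. In lung adenocarcinoma cells, as in other cells that respire, it supplies NAD+ and part of the proton gradient used to make ATP.

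The libraries were those of an epithelial line. Summed over 6 keratin and adhesion markers the level was 13377 ± 1580.1 FPKM in OC, 13837 ± 589 FPKM in OL+EV and 11895 ± 639 FPKM in DMSO+EV (FPKM, fragments scaled to transcript length and library size; mean ± SD, n = 3 each). The 6 markers did not move as 1. In the test described below, 3 rose and 1 fell in OC against DMSO+EV, with log2 changes of -0.46 to 1.52. In OL+EV against DMSO+EV 1 rose and none fell. These stand beside 33.1% risen and 35.8% fallen, and 29.0% and 23.5%, of all genes tested. Of the 5 fibroblast markers measured, COL1A1 was the 1 gene tested, COL1A2 and DCN were below 0.05 FPKM in every group mean, and the sum was 5.602 to 6.23 FPKM in OC, 3.34 to 3.75 FPKM in OL+EV and 3.38 to 3.76 FPKM in DMSO+EV. The leukocyte markers, with PTPRC and CD3E below 0.05 FPKM in every group mean, summed to 2.27 to 4.25 FPKM in OC, 1.18 to 2.25 FPKM in OL+EV and 1.44 to 1.99 FPKM in DMSO+EV. The endothelial markers summed to 0.914 to 0.955 FPKM in OC, 0.135 to 0.268 FPKM in OL+EV and 3.57 to 4.08 FPKM in DMSO+EV, with CDH5 the largest contributor to each group mean. The part of these low levels in the results was not tested. Library totals ran over 338034 to 381311 FPKM in OC, 423319 to 432563 FPKM in OL+EV and 429553 to 474156 FPKM in DMSO+EV, and the read depth behind them is unknown. At least 3 libraries stood apart within their groups. DMSO+EV replicate 2 had 443 FPKM of the noncoding RNA RN7SL1, where DMSO+EV averaged 175 ± 232 FPKM. DMSO+EV replicate 1 had 30.4% of its total in mitochondrial-DNA genes, against 20.7% and 20.3% in the other DMSO+EV libraries. OC replicate 3 held more RNA of the complex I genes than the other OC libraries, as described with the results. In bulk RNA, a smaller share of cells expressing a gene and less of its RNA per cell cannot be told apart.

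The 46 genes differed widely in level. On the FPKM scale, which is per length, mean levels in OC ran from 0.472 FPKM for NDUFAF4 to 166 FPKM for NDUFB4 with a median of 27.6. In OL+EV they ran from 1.001 FPKM for NDUFAF4 to 271 FPKM for NDUFS5 with a median of 39.03. In DMSO+EV they ran from 0.269 FPKM for NDUFA4L2 to 342 FPKM for NDUFS5 with a median of 42.7. The most abundant members were subunits of the finished enzyme, and 5 of the 8 NDUFAF assembly factors averaged below 10 FPKM in every group.

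Behind these medians stood distinct patterns, for which 3 genes serve as examples. NDUFS6, a zinc-binding subunit that marks the late docking of the N module, fell in every comparison. NDUFA9, an accessory subunit at the junction of the arms, rose in OC and fell in OL+EV. NDUFB4, an accessory subunit of the distal membrane arm, passed no test. The promoters of these genes are shown because they hold the same short motif although the 3 transcripts behaved differently. Each is given as the 250 bases before the annotated start, 5′ to 3′ on the gene's strand, from RefSeq (GRCh38.p14), with TGCGCA, the core of the site of the respiratory-gene regulator NRF1, in capitals. The genes lie at chromosome 5, 1801407 to 1816048 for NDUFS6, chromosome 12, 4649114 to 4694317 for NDUFA9 and chromosome 3, 120596336 to 120602507 for NDUFB4, all on the + strand.
NDUFS6, chr5:1801157-1801406, + strand: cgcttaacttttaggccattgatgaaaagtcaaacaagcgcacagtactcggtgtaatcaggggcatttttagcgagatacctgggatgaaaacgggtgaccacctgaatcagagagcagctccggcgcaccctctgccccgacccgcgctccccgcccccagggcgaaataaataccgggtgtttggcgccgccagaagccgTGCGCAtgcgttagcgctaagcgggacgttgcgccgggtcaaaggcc
NDUFA9, chr12:4648864-4649113, + strand: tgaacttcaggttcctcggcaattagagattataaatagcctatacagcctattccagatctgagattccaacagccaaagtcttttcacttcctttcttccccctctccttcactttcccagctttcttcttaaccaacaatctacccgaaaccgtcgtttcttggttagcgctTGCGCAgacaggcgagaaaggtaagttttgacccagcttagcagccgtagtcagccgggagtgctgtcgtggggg
NDUFB4, chr3:120596086-120596335, + strand: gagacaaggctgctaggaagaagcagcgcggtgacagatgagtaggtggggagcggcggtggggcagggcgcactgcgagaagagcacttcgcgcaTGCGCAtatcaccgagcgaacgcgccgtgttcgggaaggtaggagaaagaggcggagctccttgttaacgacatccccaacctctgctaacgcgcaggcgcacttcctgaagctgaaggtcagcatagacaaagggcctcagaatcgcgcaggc
The last base of the motif lies 42 bases before the start in NDUFS6, 70 in NDUFA9 and 149 in NDUFB4. Of the 41 members with a promoter in the RefSeq table, 12 (29.3%) held TGCGCA on either strand. The window ran from 250 bases before to 50 after the start. The background was 1352 of 9910 promoters (13.6%), 1 for each gene in the table that was tested here or is a member. The ETS core CCGGAAG was in 7 member promoters (17.1%) against 19.7% of these background promoters, and the E-box CACGTG in 4 (9.76%) against 10.2%. TGCGCA overlapped no other searched motif in the 3 printed promoters. Such matches describe the letters only and are not evidence of binding. No promoter was in the table for NDUFB5, NDUFB9, NDUFC2, NDUFS5 and NDUFAF6.

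**Figure D1:**
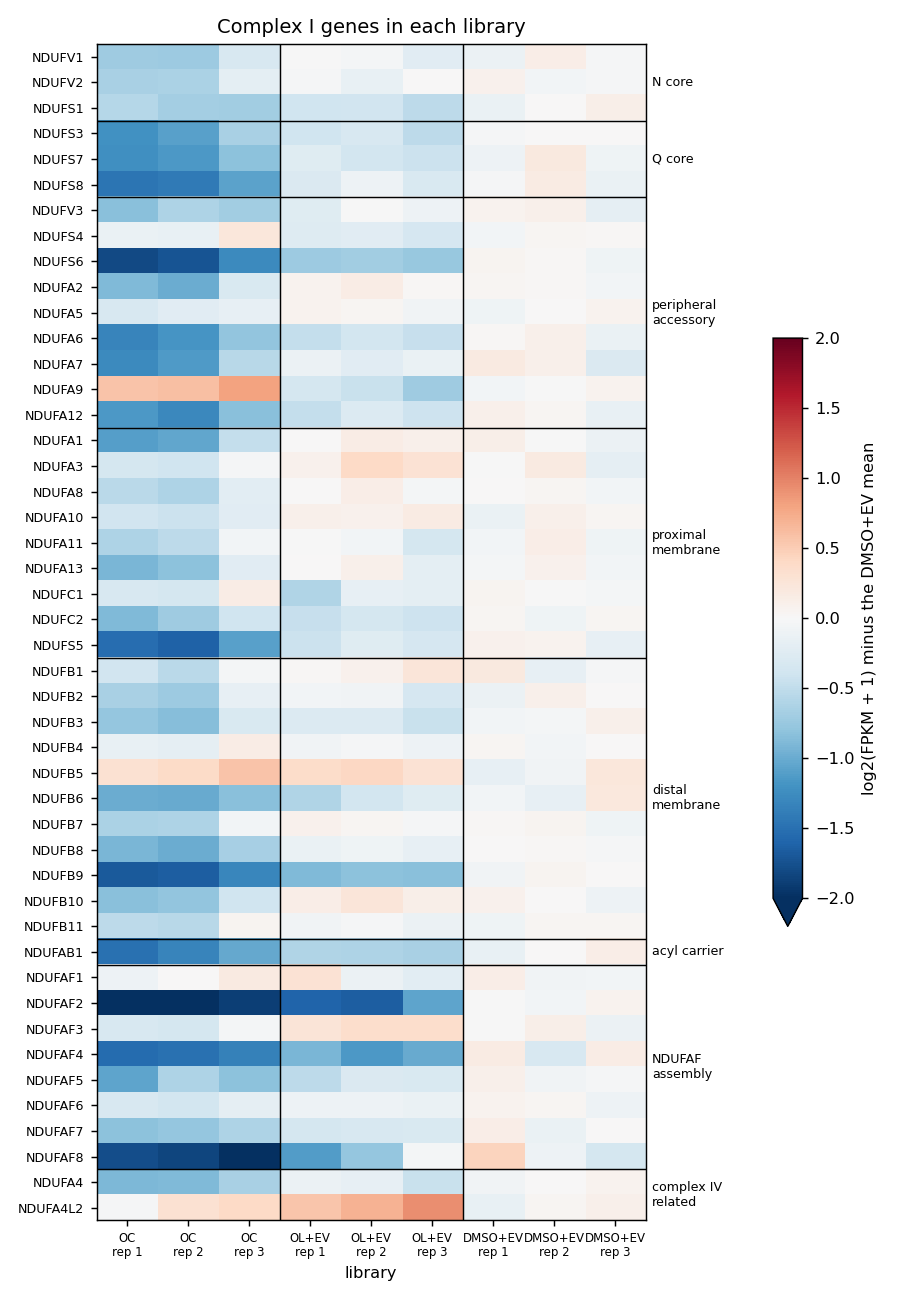
Level of each of the 46 genes (rows, grouped by class) in each of the 9 libraries (columns, 3 per group), as log2(FPKM + 1) minus the mean of the DMSO+EV libraries, with blue for lower and red for higher. The OC columns are blue for most genes, NDUFAF2 is the darkest row, NDUFA9 and NDUFB5 are red in OC, and OC replicate 3 is paler than the other OC libraries.

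Most complex I genes were lower in OC than in DMSO+EV, and fewer were lower in OL+EV than in DMSO+EV. In OC against DMSO+EV, 37 of the 45 genes tested fell, 2 rose (NDUFA9 and NDUFB5) and 6 did not pass, in limma on log2(FPKM + 1) with Benjamini-Hochberg adjustment over 13775 genes and a threshold of 0.05. Many genes changed in this comparison: 35.8% of all genes tested fell, 33.1% rose and 69.0% were called in either direction. The median log2 change of the 45 was -0.66, with a range of -2.21 to 0.66, beside -0.03 over all genes tested. A fall of at least 1 on the log2 scale was called for 11 of the 45, beside 11.4% of all genes. Such a fall was called in OL+EV against DMSO+EV for 2 (5.54% of all genes) and in OC against OL+EV for 3 (4.38% of all genes). Fold changes here and below are on the log2(FPKM + 1) scale, which understates the change of genes near or below 1 FPKM.

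In OL+EV against DMSO+EV, 17 of the 45 fell, 2 rose (NDUFB5 and NDUFAF3) and 26 did not pass. The background was 23.5% of genes fallen, 29.0% risen and 52.6% called in either direction. The median log2 change was -0.16, with a range of -1.43 to 0.36, beside 0.05 over all genes. In OC against OL+EV, 34 of the 45 fell, 1 rose (NDUFA9) and 10 did not pass, beside 34.8% fallen, 25.9% risen and 60.7% called of all genes. The median log2 change there was -0.50, with a range of -1.28 to 1.16, beside -0.09 over all genes. Both comparisons with DMSO+EV share the DMSO+EV libraries, and both comparisons of OC share the OC libraries.

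Counted without a model, all 3 OC libraries lay below all 3 DMSO+EV libraries for 33 of the 45 genes and above them for 2, beside 36.5% and 33.3% of all genes. All 3 OL+EV libraries lay below all 3 DMSO+EV libraries for 21 genes and above them for 3, beside 27.6% and 34.3% of all genes. For 34 genes the OC libraries all lay below the OL+EV libraries and for 2 above them, beside 38.4% and 29.6%. By group mean, 29 of the 45 were ordered OC below OL+EV below DMSO+EV, and 13 fell in all 3 comparisons. A set of 22 did not pass in OL+EV against DMSO+EV but fell in OC against DMSO+EV. The shares of all genes with these patterns were not counted, so nothing particular to complex I is read from them. NDUFAF1, NDUFB4 and NDUFC1 passed in no comparison as fitted here.

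OC replicate 3 bears on these counts. It was above OC replicates 1 and 2 for 41 of the 45 genes, beside 44.4% of all genes tested. Without that library the median log2 change in OC against DMSO+EV was -0.80 with 42 genes called, and in OC against OL+EV it was -0.62 with 39 called. The 42 and 39 are calls in either direction. Without that library, 4344 of 13466 genes rose and 4934 fell (36.6%) in OC against DMSO+EV. In OC against OL+EV, 3367 rose and 4826 fell (35.8%). Without DMSO+EV replicate 2, 14 genes were called in OL+EV against DMSO+EV, 1 higher and 13 lower, and 36 in OC against DMSO+EV, 2 higher and 34 lower. Of all genes, 19.9% and 32.8% fell there.

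**Figure D2:**
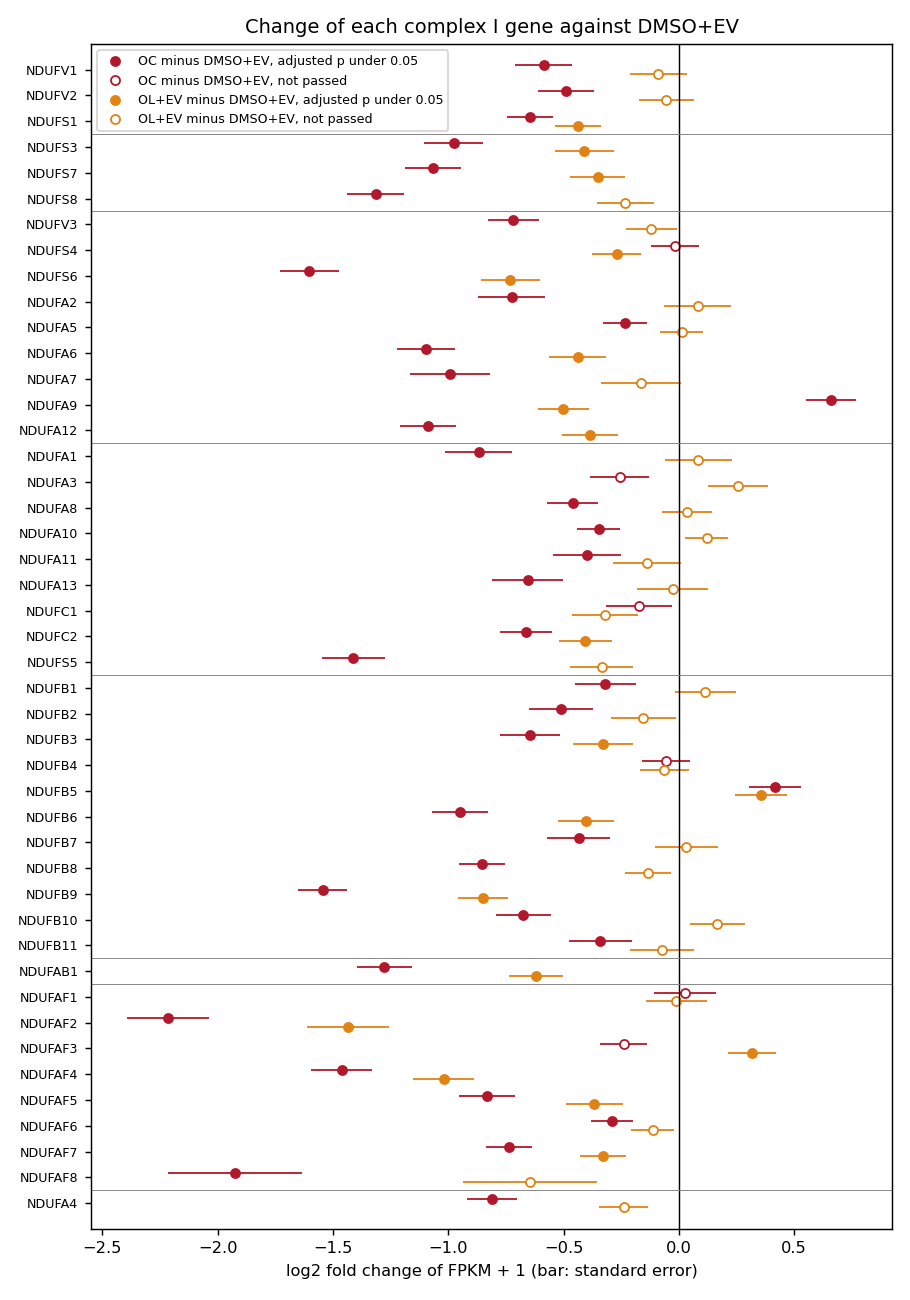
Log2 fold change of FPKM + 1 (horizontal axis) for the 45 genes tested, in OC minus DMSO+EV (red) and OL+EV minus DMSO+EV (orange), with bars for the standard error, filled points for genes with adjusted p under 0.05 and grey lines between classes. The red points lie left of 0 for all but NDUFA9, NDUFB5 and NDUFAF1, and NDUFAF2 lies farthest left at -2.21 in OC and -1.43 in OL+EV.

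The N-module core holds the flavin and iron-sulfur centres that take electrons from NADH. All 3 of its genes fell in OC against DMSO+EV, 2 of 3 fell in OC against OL+EV, and NDUFS1 alone of the 3 fell in OL+EV against DMSO+EV. Over all genes tested, 35.8%, 34.8% and 23.5% fell in that order, and a class of 3 is too small to set against these shares. NDUFV1, the flavin-bearing subunit, had 63.1, 62.3 and 83.4 FPKM in OC, 103, 101.4 and 89.1 FPKM in OL+EV and 96.0, 114 and 103 FPKM in DMSO+EV. The OC libraries were all lower, while OL+EV and DMSO+EV overlapped. The log2 change was -0.59 ± 0.12 (SE; limma adjusted p = 0.000852) in OC against DMSO+EV and -0.09 ± 0.12 (SE; limma adjusted p = 0.569) in OL+EV against DMSO+EV. NDUFV2, which carries an iron-sulfur cluster next to the flavin, had 40.5, 40.7 and 55.8 FPKM in OC, 62.4, 57.6 and 64.1 FPKM in OL+EV and 67.5, 61.2 and 62.7 FPKM in DMSO+EV, again with OC alone lower. Its log2 change was -0.49 ± 0.12 (SE; limma adjusted p = 0.00252) in OC against DMSO+EV and -0.06 ± 0.12 (SE; limma adjusted p = 0.721) in OL+EV against DMSO+EV.

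NDUFS1, the large iron-sulfur subunit of the N module, was a low transcript. It had 1.66, 1.47 and 1.43 FPKM in OC, 1.98, 2.01 and 1.74 FPKM in OL+EV and 2.60, 2.98 and 3.29 FPKM in DMSO+EV. The 3 groups did not overlap, with OC lowest and DMSO+EV highest. The log2 change was -0.65 ± 0.10 (SE; limma adjusted p = 6.42e-05) in OC and -0.44 ± 0.10 (SE; limma adjusted p = 0.00234) in OL+EV, each against DMSO+EV. In OC against OL+EV, NDUFV1 changed by -0.50 ± 0.12 (SE; limma adjusted p = 0.00358) and NDUFV2 by -0.43 ± 0.12 (SE; limma adjusted p = 0.00686). NDUFS1 changed by -0.21 ± 0.10 (SE; limma adjusted p = 0.0890) there and did not pass.

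The 3 Q-module core genes described here, NDUFS7, NDUFS8 and NDUFS3, fell in OC against each other group. Over all genes tested, 35.8% fell in OC against DMSO+EV and 34.8% in OC against OL+EV. NDUFS7, which carries the last iron-sulfur cluster before ubiquinone, had 24.4, 25.6 and 32.3 FPKM in OC, 48.9, 44.6 and 42.7 FPKM in OL+EV and 53.9, 66.4 and 54.8 FPKM in DMSO+EV, with no overlap between groups. It changed by -1.07 ± 0.12 (SE; limma adjusted p = 3.3e-06) in OC and -0.35 ± 0.12 (SE; limma adjusted p = 0.0249) in OL+EV, each against DMSO+EV. In OC its mean stood at 46.99% of the DMSO+EV mean.

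NDUFS8, an iron-sulfur subunit at the base of the Q module, had 56.5, 58.8 and 74.5 FPKM in OC, 128, 147 and 128 FPKM in OL+EV and 155, 177 and 143 FPKM in DMSO+EV. The OC libraries were the lowest by a wide gap, and OL+EV overlapped DMSO+EV. Its log2 change was -1.32 ± 0.12 (SE; limma adjusted p = 5.67e-07) in OC against DMSO+EV, -1.08 ± 0.12 (SE; limma adjusted p = 7.48e-06) in OC against OL+EV and -0.23 ± 0.12 (SE; limma adjusted p = 0.132) in OL+EV against DMSO+EV. NDUFS3, a structural subunit around which the Q module starts to form, had 31.3, 34.2 and 46.9 FPKM in OC, 55.9, 58.9 and 51.1 FPKM in OL+EV and 72.7, 74.3 and 74.0 FPKM in DMSO+EV, without overlap. It changed by -0.98 ± 0.13 (SE; limma adjusted p = 1.43e-05) in OC and -0.41 ± 0.13 (SE; limma adjusted p = 0.0163) in OL+EV, each against DMSO+EV, and by -0.57 ± 0.13 (SE; limma adjusted p = 0.00189) in OC against OL+EV. The OL+EV calls of NDUFS3 and NDUFS7 were lost without OL+EV replicate 3, at log2 changes of -0.35 and -0.31. The NDUFS7 call was also lost without OL+EV replicate 2, at -0.34, and without DMSO+EV replicate 2, at -0.26. With no filter on low values, the OL+EV calls of NDUFS3 and NDUFS7 were lost too.

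Among the 9 accessory subunits of the peripheral arm, 7 fell and 1 rose in OC against DMSO+EV, 5 fell in OL+EV against DMSO+EV, and 7 fell and 1 rose in OC against OL+EV. The falls stand beside 35.8%, 23.5% and 34.8% of all genes fallen in that order. NDUFS6, described with its promoter above, had 67.3, 71.3 and 98.4 FPKM in OC, 144, 146 and 140.1 FPKM in OL+EV and 248, 243 and 226 FPKM in DMSO+EV. No library of a group overlapped another group, with OC lowest. Its log2 change was -1.60 ± 0.13 (SE; limma adjusted p = 1.15e-07) in OC and -0.73 ± 0.13 (SE; limma adjusted p = 0.000337) in OL+EV, each against DMSO+EV, and -0.87 ± 0.13 (SE; limma adjusted p = 6.68e-05) in OC against OL+EV. NDUFS6 overlaps MRPL36, a mitochondrial ribosomal gene with up to 50.9 FPKM, and the use of strand in counting is not given, so some reads could belong to either gene. NDUFA6 and NDUFA12 also fell in all 3 comparisons. NDUFA6, which binds the acyl carrier NDUFAB1, averaged 16.5 FPKM in OC, 26.4 FPKM in OL+EV and 36.1 FPKM in DMSO+EV. NDUFA12, a paralog of the assembly factor NDUFAF2 that takes its place in the finished enzyme, averaged 27.8 FPKM in OC, 45.6 FPKM in OL+EV and 59.8 FPKM in DMSO+EV. Its OL+EV call was lost without OL+EV replicate 1, DMSO+EV replicate 1 or DMSO+EV replicate 2, at log2 changes of -0.34, -0.33 and -0.36. With no filter on low values, the OL+EV calls of NDUFA12 and NDUFA6 were lost too.

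NDUFA9 was the gene that passed in opposite directions in OC and in OL+EV. It had 10.2, 10.4 and 12.1 FPKM in OC, 4.90, 4.56 and 3.59 FPKM in OL+EV and 6.25, 6.48 and 6.87 FPKM in DMSO+EV. All OC libraries lay above all others, and all OL+EV libraries lay below all others. NDUFA9 changed by 0.66 ± 0.11 (SE; limma adjusted p = 0.00012) in OC and -0.50 ± 0.11 (SE; limma adjusted p = 0.00174) in OL+EV, each against DMSO+EV. The OC and OL+EV groups differed by 1.16 ± 0.11 (SE; limma adjusted p = 1.37e-06). No expressed gene overlapped NDUFA9 in the annotation, and its 1 pseudogene row reached 0.0316 FPKM. Its calls and directions held under each of the 19 alternative settings tried.

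NDUFS4, which stabilises the N module and is mutated in Leigh syndrome, was lower in OL+EV. It had 31.7, 31.1 and 40.8 FPKM in OC, 28.9, 29.5 and 27.4 FPKM in OL+EV and 33.4, 35.6 and 35.1 FPKM in DMSO+EV. The OL+EV libraries were the lowest, and OC overlapped DMSO+EV. It fell in OL+EV against DMSO+EV, at -0.27 ± 0.11 (SE; limma adjusted p = 0.0464), a call that was lost under 9 of 19 alternative settings, and it passed neither in OC against DMSO+EV, at -0.02 ± 0.11 (SE; limma adjusted p = 0.897), nor in OC against OL+EV, at 0.25 ± 0.11 (SE; limma adjusted p = 0.0529), where 7 of 19 settings made it pass as higher in OC. NDUFS4 was chosen for mention after its values were seen. The remaining peripheral subunits NDUFA2, NDUFA5, NDUFA7 and NDUFV3 fell in OC against both other groups, by 0.23 to 0.99 on the log2 scale against DMSO+EV, and passed in none of their OL+EV comparisons with DMSO+EV. The NDUFA5 call was lost under 12 of 18 settings in OC against DMSO+EV and under 7 of 18 in OC against OL+EV, and NDUFA5 pseudogene rows reached 18.6% of its level.

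**Figure D3:**
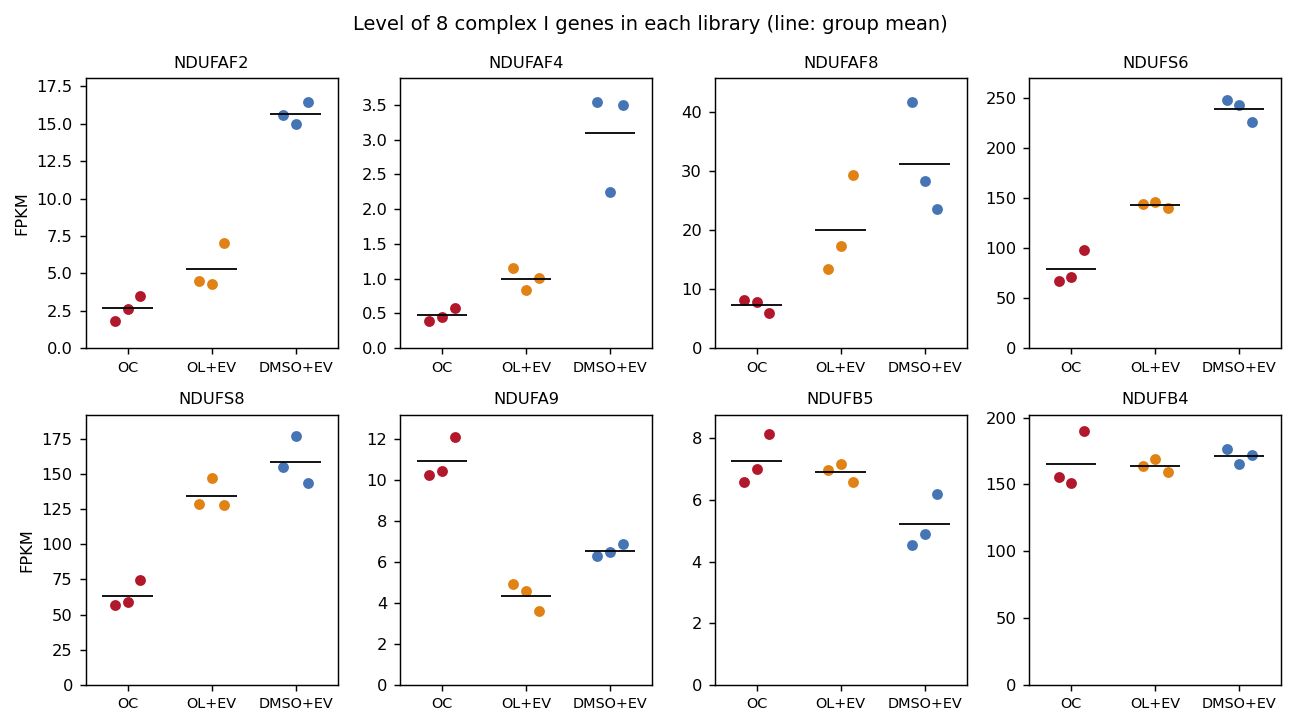
FPKM (vertical axis, linear and starting at 0) of 8 genes in each library, with OC, OL+EV and DMSO+EV from left to right and a line at each group mean. NDUFAF2, NDUFAF4 and NDUFS6 step down to OC without overlap, NDUFA9 is highest in OC at 10.2, 10.4 and 12.1 FPKM, NDUFB5 is lowest in DMSO+EV, and NDUFB4 overlaps between all groups.

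The proximal membrane arm had 9 accessory genes, of which 7 fell in OC against DMSO+EV, 6 fell in OC against OL+EV and 1, NDUFC2, fell in OL+EV against DMSO+EV. The falls stand beside 35.8%, 34.8% and 23.5% of all genes fallen in that order. In OL+EV against DMSO+EV the class, at 11.1%, lay below the share of all genes. NDUFS5, a small subunit on the intermembrane-space side, had 118, 110.2 and 159 FPKM in OC, 254, 288 and 269.9 FPKM in OL+EV and 363, 357 and 306 FPKM in DMSO+EV. It was the most abundant member in OL+EV and DMSO+EV, and the OC libraries lay far below both. It changed by -1.41 ± 0.14 (SE; limma adjusted p = 7.32e-07) in OC against DMSO+EV and -1.08 ± 0.14 (SE; limma adjusted p = 1.83e-05) in OC against OL+EV. The change in OL+EV against DMSO+EV, -0.33 ± 0.14 (SE; limma adjusted p = 0.0538), missed the threshold although the libraries did not overlap, and it passed as lower under 7 of the 19 settings.

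NDUFA1, a short membrane subunit needed early in the assembly of this arm, had 100.5, 105 and 156 FPKM in OC, 218, 241 and 232 FPKM in OL+EV and 235, 216 and 201 FPKM in DMSO+EV. OL+EV overlapped DMSO+EV, and the OC libraries lay below both. The change was -0.87 ± 0.15 (SE; limma adjusted p = 0.000138) in OC against DMSO+EV, -0.95 ± 0.15 (SE; limma adjusted p = 9.82e-05) in OC against OL+EV and 0.08 ± 0.15 (SE; limma adjusted p = 0.647) in OL+EV against DMSO+EV. The other falls in OC against DMSO+EV, of NDUFA8, NDUFA10, NDUFA11, NDUFA13 and NDUFC2, ran from 0.35 to 0.66 on the log2 scale. The NDUFA11 call was lost with no filter on low values. It was also lost without OC replicate 1, OC replicate 2 or DMSO+EV replicate 2, at -0.29, -0.33 and -0.33. NDUFA3 did not pass there, at -0.26 ± 0.13 (SE; limma adjusted p = 0.0908), and fell in OC against OL+EV, at -0.51 ± 0.13 (SE; limma adjusted p = 0.00371). NDUFA3 overlaps TFPT, which reached 29.6 FPKM. NDUFC1 did not pass, at -0.17 ± 0.14 (SE; limma adjusted p = 0.292) in OC and -0.32 ± 0.14 (SE; limma adjusted p = 0.0748) in OL+EV, each against DMSO+EV. It passed as lower under 3 of the 19 settings in OL+EV and, without OC replicate 3, in OC, at -0.34.

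Of the 11 distal membrane arm genes, NDUFB1 to NDUFB11, 9 fell and 1 rose in OC against DMSO+EV, 3 fell and 1 rose in OL+EV against DMSO+EV, and 8 fell in OC against OL+EV. The falls stand beside 35.8%, 23.5% and 34.8% of all genes fallen in that order. In OL+EV against DMSO+EV the class, at 27.3%, was near the share of all genes. NDUFB9, which binds the acyl carrier in this arm, had 56.9, 57.7 and 73.6 FPKM in OC, 99.3, 103 and 102 FPKM in OL+EV and 175, 192 and 184 FPKM in DMSO+EV. The groups were fully separated, with the OC libraries lowest. Its log2 change was -1.55 ± 0.11 (SE; limma adjusted p = 3.03e-08) in OC and -0.85 ± 0.11 (SE; limma adjusted p = 2.27e-05) in OL+EV, each against DMSO+EV, and -0.70 ± 0.11 (SE; limma adjusted p = 0.000105) in OC against OL+EV. NDUFB6 likewise fell in all 3 comparisons and averaged 4.91 FPKM in OC, 7.67 FPKM in OL+EV and 10.5 FPKM in DMSO+EV. Its OL+EV call was lost without OL+EV replicate 1 or DMSO+EV replicate 3, at log2 changes of -0.30 and -0.29. Testing with no filter on low values also lost it.

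NDUFB5, a structural subunit of the distal arm, went the other way. It had 6.59, 7.01 and 8.15 FPKM in OC, 6.96, 7.17 and 6.57 FPKM in OL+EV and 4.53, 4.88 and 6.20 FPKM in DMSO+EV. The DMSO+EV libraries were the lowest, and OC overlapped OL+EV. The log2 change was 0.42 ± 0.11 (SE; limma adjusted p = 0.00518) in OC and 0.36 ± 0.11 (SE; limma adjusted p = 0.0176) in OL+EV, each against DMSO+EV, and 0.06 ± 0.11 (SE; limma adjusted p = 0.674) in OC against OL+EV. The call in OL+EV was lost without OL+EV replicate 2, DMSO+EV replicate 1 or DMSO+EV replicate 2, at log2 changes of 0.33, 0.28 and 0.32. Testing with no filter on low values also lost it.

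NDUFB4, chosen for mention after its values were seen, was the most abundant member in OC and had 155, 151 and 190.2 FPKM in OC, 163, 169 and 159 FPKM in OL+EV and 177, 165 and 172 FPKM in DMSO+EV. All groups overlapped, and the log2 change was -0.06 ± 0.11 (SE; limma adjusted p = 0.647) in OC against DMSO+EV, -0.06 ± 0.11 (SE; limma adjusted p = 0.634) in OL+EV against DMSO+EV and 0.01 ± 0.11 (SE; limma adjusted p = 0.960) in OC against OL+EV. The other members of the arm that fell in OC against DMSO+EV were NDUFB1, NDUFB2, NDUFB3, NDUFB7, NDUFB8, NDUFB10 and NDUFB11, by 0.32 to 0.85 on the log2 scale. The calls of NDUFB1 and NDUFB11 in OC against DMSO+EV were lost under 11 and 9 of the 19 settings, and that of NDUFB7 without OC replicate 1 or OC replicate 2, at -0.34 in each case. That NDUFB7 call was also lost with no filter on low values. NDUFB3 was counted as fallen in all 3 comparisons, but its call was lost under 14 of the 19 settings in OC against OL+EV and under 10 in OL+EV against DMSO+EV, and the call of NDUFB2 in OC against OL+EV was lost under 10. NDUFB10, at 0.17 ± 0.12 (SE; limma adjusted p = 0.256) in OL+EV against DMSO+EV, had all OL+EV libraries above all DMSO+EV libraries without passing.

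NDUFAB1 is the mitochondrial acyl carrier protein, which sits in both arms of complex I and also serves fatty acid synthesis and iron-sulfur cluster assembly. It had 31.1, 35.2 and 43.5 FPKM in OC, 58.5, 58.1 and 56.8 FPKM in OL+EV and 80.8, 90.1 and 98.0 FPKM in DMSO+EV. No groups overlapped, and OC was lowest. NDUFAB1 changed by -1.28 ± 0.12 (SE; limma adjusted p = 5.25e-07) in OC and -0.62 ± 0.12 (SE; limma adjusted p = 0.000679) in OL+EV, each against DMSO+EV, and -0.66 ± 0.12 (SE; limma adjusted p = 0.00036) in OC against OL+EV. The LYR-motif subunits that hold it, NDUFA6 and NDUFB9, fell in the same comparisons, as given above.

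The 8 NDUFAF assembly factors included NDUFAF4, the member with the lowest mean in OC and in OL+EV, and NDUFAF2, the member with the largest log2(FPKM + 1) change against DMSO+EV in both. In OC against DMSO+EV, 6 fell. In OL+EV against DMSO+EV, 4 fell and NDUFAF3 rose. In OC against OL+EV, 6 fell. The falls stand beside 35.8%, 23.5% and 34.8% of all genes fallen in that order. NDUFAF2, which holds the place of NDUFA12 in a late intermediate, had 1.84, 2.61 and 3.51 FPKM in OC, 4.52, 4.29 and 7.02 FPKM in OL+EV and 15.6, 14.99 and 16.4 FPKM in DMSO+EV. The DMSO+EV libraries were within 2 FPKM of each other and far above the rest. NDUFAF2 changed by -2.21 ± 0.18 (SE; limma adjusted p = 2.6e-07) in OC and -1.43 ± 0.18 (SE; limma adjusted p = 2.79e-05) in OL+EV, each against DMSO+EV, and -0.78 ± 0.18 (SE; limma adjusted p = 0.00231) in OC against OL+EV. As means, NDUFAF2 stood at 16.9% of DMSO+EV in OC and 33.7% in OL+EV, while NDUFAF4 was lower by this measure, at 15.3% in OC and 32.4% in OL+EV. The 2 NDUFAF2 pseudogene rows summed to at most 0.528 FPKM.

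NDUFAF4 and NDUFAF3 work together on the early Q-module intermediate of assembly. NDUFAF4 had 0.393, 0.444 and 0.580 FPKM in OC, 1.16, 0.833 and 1.02 FPKM in OL+EV and 3.54, 2.25 and 3.499 FPKM in DMSO+EV. All OC libraries were below 1 FPKM, so the gene entered the test through the other groups. Its log2 change was -1.46 ± 0.13 (SE; limma adjusted p = 3.99e-07) in OC and -1.02 ± 0.13 (SE; limma adjusted p = 2.69e-05) in OL+EV, each against DMSO+EV, and -0.44 ± 0.13 (SE; limma adjusted p = 0.0110) in OC against OL+EV, where the call was lost with a pseudocount of 5. Rows of NDUFAF4 pseudogenes reached 67.1% of its own level, so the split of reads between them is uncertain. NDUFAF3 had 17.1, 16.9 and 21.0 FPKM in OC, 26.1, 28.0 and 27.9 FPKM in OL+EV and 21.7, 23.6 and 20.0 FPKM in DMSO+EV. The OL+EV libraries were the highest, and OC overlapped DMSO+EV. It rose by 0.32 ± 0.10 (SE; limma adjusted p = 0.0190) in OL+EV against DMSO+EV and changed by -0.24 ± 0.10 (SE; limma adjusted p = 0.0516) in OC against DMSO+EV, which passed as lower under 4 of the 19 settings. The rise was lost under 5 of the 19 settings. It was lost without OL+EV replicate 2, OL+EV replicate 3 or DMSO+EV replicate 3, at log2 changes of 0.30, 0.30 and 0.26. Median-of-ratios rescaling, at 0.26, and no filter on low values, at 0.32, also lost it. NDUFAF3 overlaps DALRD3, which reached 16.4 FPKM.

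NDUFAF5 and NDUFAF8 form a pair in which NDUFAF8 stabilises NDUFAF5, an enzyme that modifies NDUFS7. NDUFAF8 had 8.12, 7.79 and 6.04 FPKM in OC, 13.5, 17.3 and 29.4 FPKM in OL+EV and 41.8, 28.3 and 23.5 FPKM in DMSO+EV. The OC libraries were the lowest, and OL+EV and DMSO+EV overlapped with a wide spread. The log2 change was -1.92 ± 0.29 (SE; limma adjusted p = 0.000339) in OC against DMSO+EV and -1.28 ± 0.29 (SE; limma adjusted p = 0.00488) in OC against OL+EV. In OL+EV against DMSO+EV it was -0.64 ± 0.29 (SE; limma adjusted p = 0.0956), and without OL+EV replicate 3, its highest OL+EV library, it was -0.94 and passed. NDUFAF5, chosen for mention after its values were seen, had 0.962, 1.67 and 1.32 FPKM in OC, 1.86, 2.36 and 2.33 FPKM in OL+EV and 3.39, 2.89 and 3.03 FPKM in DMSO+EV, without overlap between groups. It changed by -0.83 ± 0.12 (SE; limma adjusted p = 4.01e-05) in OC and -0.37 ± 0.12 (SE; limma adjusted p = 0.0225) in OL+EV, each against DMSO+EV. NDUFAF7, a methyltransferase that acts during assembly, fell in all 3 comparisons and averaged 2.96 FPKM in OC, 4.24 FPKM in OL+EV and 5.603 FPKM in DMSO+EV. NDUFAF6 fell in OC against DMSO+EV, at -0.29 ± 0.09 (SE; limma adjusted p = 0.0132), did not pass in the other comparisons, and without OC replicate 2 lost its call, at -0.25. NDUFAF7 overlaps PRKD3, which reached 6.47 FPKM, and NDUFAF6 overlaps TP53INP1, which reached 10.5 FPKM, so some reads could belong to either gene. The OL+EV call of NDUFAF5 was lost without OL+EV replicate 1 or DMSO+EV replicate 1, at -0.29 and -0.32, and that of NDUFAF7 without DMSO+EV replicate 1, at -0.27. Testing with no filter on low values also lost the OL+EV call of NDUFAF5. NDUFAF1, part of the complex that assembles the membrane arm around mitochondrial-DNA subunits, averaged 3.41 FPKM in OC, 3.33 FPKM in OL+EV and 3.32 FPKM in DMSO+EV and passed in no comparison.

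NDUFA4 was named as a complex I gene and is now assigned to complex IV, cytochrome c oxidase. It had 11.1, 11.4 and 13.4 FPKM in OC, 20.0, 19.4 and 15.6 FPKM in OL+EV and 20.5, 21.9 and 22.8 FPKM in DMSO+EV. The OC libraries were the lowest, and all OL+EV libraries lay below all DMSO+EV libraries. The change was -0.81 ± 0.11 (SE; limma adjusted p = 1.66e-05) in OC against DMSO+EV, -0.57 ± 0.11 (SE; limma adjusted p = 0.000515) in OC against OL+EV and -0.24 ± 0.11 (SE; limma adjusted p = 0.0790) in OL+EV against DMSO+EV. NDUFA4L2, its hypoxia-induced paralog, was the 1 member below the filter of 1 FPKM in at least 3 libraries. It had 0.245, 0.563 and 0.672 FPKM in OC, 0.863, 1.06 and 1.40 FPKM in OL+EV and 0.143, 0.303 and 0.362 FPKM in DMSO+EV. The OL+EV libraries were all above the others, near 1 FPKM. With no filter on low values, limma gave 0.73 ± 0.14 (SE; adjusted p = 0.00654) in OL+EV against DMSO+EV, 0.23 ± 0.14 (SE; adjusted p = 0.290) in OC against DMSO+EV and -0.50 ± 0.14 (SE; adjusted p = 0.0304) in OC against OL+EV. NDUFA4L2 overlaps SHMT2, which reached 65.6 FPKM, so at this level reads of either gene cannot be told apart.

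Summed over the 46 genes, assembly factors, NDUFA4 and NDUFA4L2 included, the level came to 1784 ± 340.4 FPKM in OC, 2681 ± 95.8 FPKM in OL+EV and 3095 ± 118 FPKM in DMSO+EV (SD, n = 3 each). The OC libraries held 1585 to 2177 FPKM, the OL+EV libraries 2608 to 2789 FPKM and the DMSO+EV libraries 2963 to 3191 FPKM, without overlap. As a share of the library total, this was 0.501 ± 0.0604% in OC, 0.625 ± 0.0220% in OL+EV and 0.692 ± 0.0333% in DMSO+EV. By class and relative to the DMSO+EV mean, the OC sum stood at 68.3% for the N core, 44.1% for the Q core genes, 47.6% for the peripheral accessory genes and 57.0% for the proximal membrane genes. It stood at 67.7% for the distal membrane genes, 40.8% for NDUFAB1 and 45.9% for the NDUFAF genes. The OL+EV sums ranged over 64.5% for NDUFAB1 to 94.3% for the N core. These differences between classes were not tested.

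**Figure D4:**
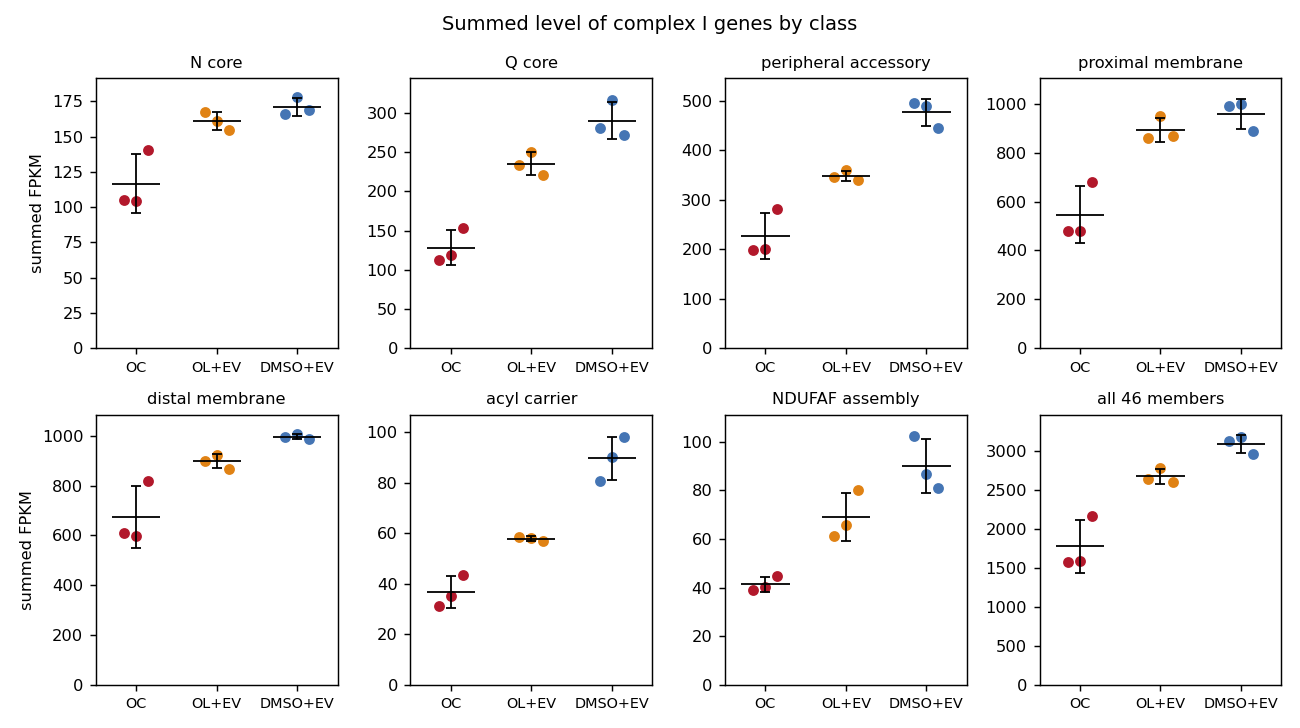
Summed FPKM (vertical axis, from 0) of the genes of 7 classes and of all 46 members in each library, with OC, OL+EV and DMSO+EV from left to right, lines at group means and bars for the SD (n = 3). In each panel the 3 OC libraries lie below all others, and OC replicate 3 is the highest of them.

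The subunits encoded in mitochondrial DNA, the ND genes, were lower in OC than in both other groups. All 7 ND genes fell in OC against DMSO+EV, with a median log2 change of -2.20, and all 7 fell in OC against OL+EV, with a median of -1.99, and did so without any 1 library. None passed in OL+EV against DMSO+EV in limma, where the median was -0.22 and 0 of the 7 had an unadjusted p under 0.05. That value rested on DMSO+EV replicate 1, which had 9698 FPKM of ND1 where the other DMSO+EV libraries had 5797 and 5686 FPKM. Without it the OL+EV median was 0.03, with 5 of the 7 above 0 and none passing, and the OC median against DMSO+EV was -1.97. Leaving out libraries for the ND genes was added after the data were seen. ND1 averaged 1731 FPKM in OC, 5932 FPKM in OL+EV and 7060.3 FPKM in DMSO+EV, and ND6 averaged 283 FPKM in OC, 1291 FPKM in OL+EV and 1561 FPKM in DMSO+EV. All mitochondrial-DNA genes together took 6.70 ± 0.599% in OC, 22.3 ± 2.87% in OL+EV and 23.8 ± 5.75% in DMSO+EV of the library total. Because FPKM is scaled to each library, the level of these abundant genes bears on the values of all others. With mitochondrial-DNA genes taken out of the totals, the 46 genes made up 0.537 ± 0.0614% in OC, 0.804 ± 0.0168% in OL+EV and 0.910 ± 0.0425% in DMSO+EV. With totals equalised that way, 35 of the 45 genes fell and 2 rose in OC against DMSO+EV, beside 33.7% of all genes fallen.

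Other genes of the pathway, from lists set by function, were read in the same fit. Of 12 complex I assembly factors with other names, 8 fell in OC against DMSO+EV, 2 in OL+EV against DMSO+EV and 3 in OC against OL+EV, and none rose in any of them in limma, at an unadjusted p under 0.05 also 0. These were 66.7%, 16.7% and 25.0% of the list, beside 35.8%, 23.5% and 34.8% fallen over all genes, so that in OL+EV against DMSO+EV and in OC against OL+EV the list lay below the share of all genes. COA1, which takes part in building the membrane arm, averaged 5.34 FPKM in OC, 9.17 FPKM in OL+EV and 11.8 FPKM in DMSO+EV and changed by -1.01 ± 0.14 (SE; limma adjusted p = 2.7e-05) in OC against DMSO+EV. FOXRED1, an oxidoreductase-like chaperone of a middle stage, averaged 4.19 FPKM in OC, 5.44 FPKM in OL+EV and 9.14 FPKM in DMSO+EV and fell in all 3 comparisons, by 0.97 on the log2 scale in OC and 0.65 in OL+EV, each against DMSO+EV. TMEM70 averaged 2.49 FPKM in OC, 3.24 FPKM in OL+EV and 5.43 FPKM in DMSO+EV and fell by 0.89 and 0.60 in the same comparisons. ACAD9, TIMMDC1, TMEM126B and DMAC2 passed in none.

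Of 10 regulators of respiratory genes, 8 could be tested, and 6 fell in OC against DMSO+EV, 4 in OL+EV against DMSO+EV and 4 in OC against OL+EV, with none rising in limma, at an unadjusted p under 0.05 also 0, beside the same shares of all genes. PPRC1, a coactivator of nuclear respiratory genes, had 2.71, 2.79 and 2.09 FPKM in OC, 5.16, 4.86 and 4.68 FPKM in OL+EV and 10.96, 12.5 and 11.6 FPKM in DMSO+EV. The groups did not overlap, and its log2 change was -1.85 ± 0.10 (SE; limma adjusted p = 2.77e-09) in OC and -1.10 ± 0.10 (SE; limma adjusted p = 1.23e-06) in OL+EV, each against DMSO+EV. MYC averaged 6.74 FPKM in OC, 9.97 FPKM in OL+EV and 25.4 FPKM in DMSO+EV and changed by -1.77 ± 0.09 (SE; limma adjusted p = 7.26e-10) in OC and -1.26 ± 0.09 (SE; limma adjusted p = 5.75e-08) in OL+EV, each against DMSO+EV. NRF1 itself averaged 2.36 FPKM in OC, 3.23 FPKM in OL+EV and 3.56 FPKM in DMSO+EV, and ESRRA, a nuclear receptor of the same programme, averaged 25.0 FPKM in OC, 39.9 FPKM in OL+EV and 43.9 FPKM in DMSO+EV. TFAM, which packages and transcribes mitochondrial DNA, averaged 3.70 FPKM in OC, 3.31 FPKM in OL+EV and 6.05 FPKM in DMSO+EV, fell in OC and in OL+EV against DMSO+EV and did not pass in OC against OL+EV.

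Hypoxia-induced genes were read because NDUFA4L2 belongs to that group. Of 10 tested, 5 rose and 3 fell in OC against DMSO+EV, 3 rose and 4 fell in OL+EV against DMSO+EV, and 7 rose and 1 fell in OC against OL+EV. Of all genes, 33.1%, 29.0% and 25.9% rose and 35.8%, 23.5% and 34.8% fell in that order. The falls in OC against DMSO+EV and the rises in OL+EV against DMSO+EV were near these shares. NDRG1 averaged 66.8 FPKM in OC, 32.0 FPKM in OL+EV and 16.8 FPKM in DMSO+EV, and VEGFA, an angiogenic factor, averaged 75.0 FPKM in OC, 48.9 FPKM in OL+EV and 25.7 FPKM in DMSO+EV. HK2, a hexokinase at the entry of glycolysis, averaged 13.7 FPKM in OC, 1.55 FPKM in OL+EV and 3.20 FPKM in DMSO+EV, with a log2 change of 2.53 ± 0.11 (SE; limma adjusted p = 4.65e-10) in OC against OL+EV. CA9, a carbonic anhydrase, averaged 2.18 FPKM in OC, 0.710 FPKM in OL+EV and 4.02 FPKM in DMSO+EV and fell in both comparisons with DMSO+EV. The list did not move in a common direction in either comparison with DMSO+EV.

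Nuclear genes of the other respiratory complexes and of the mitochondrial ribosome also fell. Of 43 tested genes of complexes II to V, 36 fell and none rose in OC against DMSO+EV (0 rose at an unadjusted p under 0.05 in limma), with a median log2 change of -0.95 beside -0.66 for complex I. For OL+EV against DMSO+EV, 20 fell and 1 rose, with a median of -0.29. In OC against OL+EV, 34 fell and 2 rose, with a median of -0.65. ATP5MC1, a subunit of the rotor of ATP synthase, had the largest fall of this list against DMSO+EV, at -2.07 ± 0.12 (SE; limma adjusted p = 4.91e-09) in OC and -1.31 ± 0.12 (SE; limma adjusted p = 1.18e-06) in OL+EV. Of 75 mitochondrial ribosomal protein genes, 67 fell and 3 rose in OC against DMSO+EV, 43 fell and 1 rose in OL+EV against DMSO+EV, and 49 fell and 5 rose in OC against OL+EV. Their medians were -0.80, -0.38 and -0.44 in that order, and MRPL12 had the largest fall in each. In the same order, 89.3%, 57.3% and 65.3% of these ribosomal genes fell, and 83.7%, 46.5% and 79.1% of complexes II to V. Over all genes 35.8%, 23.5% and 34.8% fell. Whether complex I differed from these groups was not tested.

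**Figure D5:**
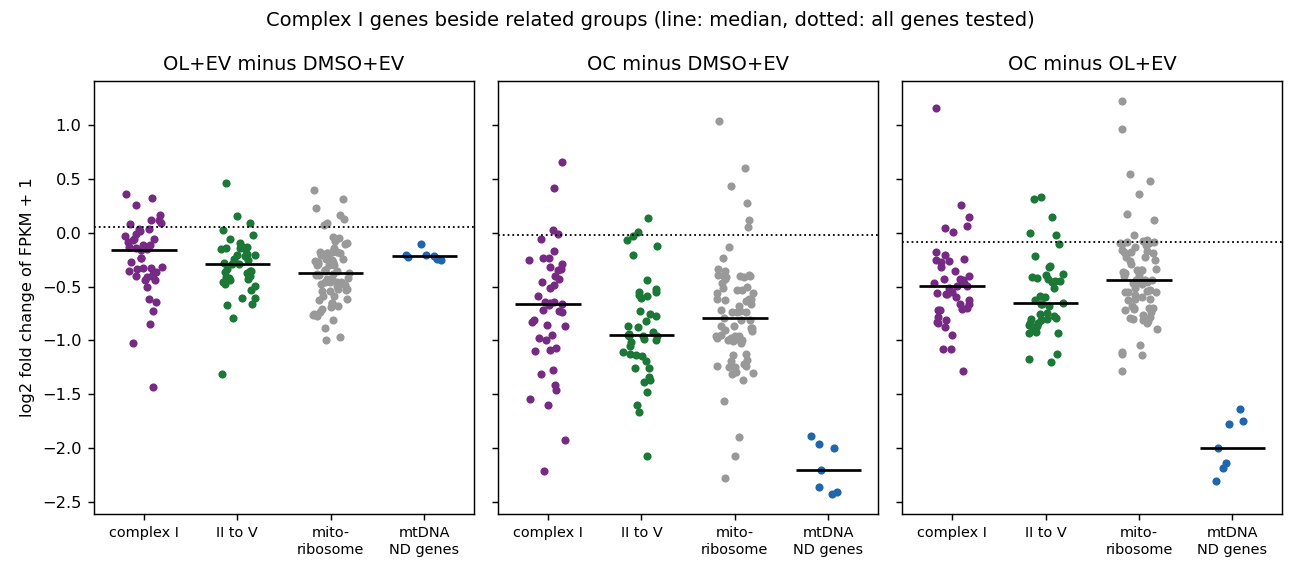
Log2 fold change of FPKM + 1 (vertical axis) of each tested gene of complex I, complexes II to V, the mitochondrial ribosome and the ND genes of mitochondrial DNA, in 3 panels for OL+EV minus DMSO+EV, OC minus DMSO+EV and OC minus OL+EV, with a line at each group's median and a dotted line at the median of all genes tested. In the OC panels the ND genes lie lowest, at medians of -2.20 and -1.99, and the medians of the nuclear groups lie between them and the dotted line.

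Some complex I genes have a neighbour that starts close by on the opposite strand. Pairs were sought only among starts in the RefSeq promoter table, so further pairs may be missing. Among members there whose start lies within 1000 bases of the start of a protein-coding gene on the opposite strand, 11 pairs could be tested. In OC against DMSO+EV all 11 members fell, and of their partners 6 fell and 2 rose, so that both fell in 6 pairs. In OL+EV against DMSO+EV, 4 members and 4 partners fell, both in 3 pairs, and 2 partners rose. In OC against OL+EV, 9 members and 4 partners fell, both in 2 pairs, and 1 partner rose. The partners' falls, 6, 4 and 4 of 11, stand beside 35.8%, 23.5% and 34.8% of all genes, and that in OC against OL+EV was close to the share of all genes. EEF1B2, a translation elongation factor next to NDUFS1, averaged 23.4 FPKM in OC, 84.5 FPKM in OL+EV and 133 FPKM in DMSO+EV and changed by -2.47 ± 0.13 (SE; limma adjusted p = 1.65e-09) in OC against DMSO+EV, more than NDUFS1 itself. KBTBD4, next to NDUFS3, averaged 6.96 FPKM in OC, 4.26 FPKM in OL+EV and 5.05 FPKM in DMSO+EV and changed by 0.42 ± 0.15 (SE; limma adjusted p = 0.0211) in OC against DMSO+EV, opposite to NDUFS3. TEPSIN, next to NDUFAF8, fell in OC against DMSO+EV, at -0.52 ± 0.10 (SE; limma adjusted p = 0.000395), and rose in OL+EV against DMSO+EV, at 0.51 ± 0.10 (SE; limma adjusted p = 0.000749). These 3 partners were chosen for mention after their values were seen.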

How the data were processed

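Of 21 samples in the series, the 9 H1975 RNA-seq libraries entered, grouped by label. The other 12, of circular RNA, were not analysed here. The authors' deposited matrix gives FPKM per gene symbol and library. That unit is not named in the file and was inferred from fractional values and unequal column totals. Low values show no steps of whole reads, so depth is unknown and no counting interval is given. The tools STAR, Bowtie2 2.1.0 and edgeR and the build hg38 are listed without a role, per the submitters' processing notes. How genes were counted, with which annotation and whether by strand, is not given in the sources used here. Besides the members named with an overlap, NDUFA2, NDUFB6, NDUFB11 and NDUFC1 also overlap another expressed protein-coding gene.

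Values were taken as log2(FPKM + 1), for 13775 genes with at least 1 FPKM in at least 3 libraries. One limma model (limma 3.58.1, R 4.3.3, trend and robust empirical Bayes, no covariate, 6 residual degrees of freedom) over the 3 groups gave two-sided tests, adjusted by Benjamini-Hochberg over all genes tested, with a threshold of 0.05. The script was tested on simulated data. Members, classes and other lists were chosen with earlier results of these data known. Values per library are given for the 5 largest called rises and falls among members per comparison, the 6 core subunits described, NDUFA4 and NDUFA4L2, and for others named as such. Alternatives were other pseudocounts, filters, scalings and fits, a replicate block and leaving out each library. Promoters came from RefSeq and matched 41 of 46 members. A further gene that the symbol rule finds is not reported here. A comparison of changes with protein length was not run.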

Additional observations from a re-analysis of the deposited data

How the results depend on the processing

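Of 114 values of the summary results (counts of complex I genes called and median log2 changes under 19 alternative settings), 110 stayed within 1.5 times the count reported or within the pooled SD of the libraries' own medians (0.0421, 0.159 and 0.157 on the log2 scale in OL+EV against DMSO+EV, OC against DMSO+EV and OC against OL+EV), and kept their sign. With no filter on low values, where 33108 genes were tested and 10.1% of them fell, 10 complex I genes were called in OL+EV against DMSO+EV. Of these, 1 was higher and 9 lower, against 19 called as reported. The 1 higher was NDUFA4L2, which was not tested with the filter. The reported rises of NDUFB5 and NDUFAF3 did not pass without it (limma adjusted p = 0.0595 and 0.0560). The median there was -0.22 under median-of-ratios rescaling, -0.211 without DMSO+EV replicate 1 and -0.207 without DMSO+EV replicate 3, against -0.16 as reported. Median-of-ratios rescaling also turned the balance of all genes in OL+EV against DMSO+EV, to 3575 higher and 3696 lower. Leaving out each library in turn gave 14 to 23 genes called and medians of -0.211 to -0.125 in OL+EV against DMSO+EV. It gave 33 to 42 called and medians of -0.799 to -0.596 in OC against DMSO+EV, and 32 to 39 called and medians of -0.619 to -0.444 in OC against OL+EV. The shares of all genes that fell then ran over 19.4% to 25.9%, 32.8% to 36.6% and 29.9% to 36.1% in that order of comparisons. These shares are of falls only, while the counts of complex I genes called are of either direction. As reported, 52.6%, 69.0% and 60.7% of all genes were called in either direction. The 23 called in OL+EV against DMSO+EV came without OC replicate 3, where 4283 of 13466 genes rose and 3492 fell. Deviations of same-numbered libraries from their group means correlated between -0.315 and 0.0358 over 9 pairs. OL+EV replicate 3 and DMSO+EV replicate 1, of different number, correlated at 0.329. With 3 libraries per group and the group means taken out, such values cannot show whether libraries were paired. With a replicate block, 17 genes were called in OL+EV against DMSO+EV, 38 in OC against DMSO+EV and 32 in OC against OL+EV, at medians of -0.16, -0.66 and -0.50. These counts are of calls in either direction. With the block, 3757 of 13775 genes rose and 3081 fell (22.4%) in OL+EV against DMSO+EV. In OC against DMSO+EV, 4404 rose and 4800 fell (34.8%), and in OC against OL+EV, 3405 rose and 4558 fell (33.1%).

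Of 114 member results followed, none that was called changed direction, and 33 crossed the threshold under at least 1 setting. The 7 that changed sign were near 0. Under quantile normalization, NDUFV1 and NDUFB4 in OL+EV against DMSO+EV were at 0.0178 and 0.0158, and NDUFB4 in OC against OL+EV was at -0.0425. With equal totals without mitochondrial-DNA genes, NDUFS4 in OC against DMSO+EV was at 0.0264. Leaving out each library in turn, log2 changes in OC against DMSO+EV ran from -0.139 to 0.0521 for NDUFS4 and from -0.160 to 0.00448 for NDUFB4. In OC against OL+EV they ran from -0.0965 to 0.0677 for NDUFB4, from -0.0186 to 0.116 for NDUFB5 and -0.0160 to 0.237 for NDUFC1. The cause of these changes was not tested.

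Unknown depth leaves genes below about 1 FPKM, such as NDUFAF4 in OC and NDUFA4L2, without a counting error.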
